A study of Rattus norvegicus with 36 samples.

Results

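The enzymes Gch1, Pts, Spr, Qdpr, Nos1 and Arg1 were followed in dorsal root ganglia of rats, where the cell bodies of the sensory neurons lie. They are 6 of the 10969 genes that probe sets with a single symbol name. Their probe sets, those whose platform annotation gives one of these symbols alone, came to 13 of 26202 on the 3 chip types of the Affymetrix RG_U34 array. There were 4 probe sets for Gch1, 3 for Nos1, 2 each for Spr and Qdpr, and 1 each for Pts and Arg1. Chip A carried 12 of them and chip C carried 1. One further chip A probe set, annotated to both Spr and the pseudogene Spr-ps1, was left out.

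The ganglia came from 6 pools, at 50 and 28 days after surgery. L5 pools held the L5 ganglia of operated rats, in which the L5 spinal nerve was ligated (spinal nerve ligation, a model of neuropathic pain), L4 pools held the neighbouring ganglia of operated rats, and sham pools held L4 and L5 ganglia of sham-operated rats mixed together. Normal differences between L4 and L5 ganglia are therefore part of each comparison with sham. In L5 against L4 such normal differences cannot be told apart from those that go with the ligation. A pool stood for 30 rats wherever a label states how many. It was hybridised to 2 arrays per chip type, so the 36 arrays hold 1 pool per condition and day. The labels give no strain, sex or age.

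Tetrahydrobiopterin (BH4) is the cofactor that nitric oxide synthases and the aromatic amino acid hydroxylases need. It is made from GTP in a chain that Gch1 (GTP cyclohydrolase) starts and limits, Pts (6-pyruvoyltetrahydropterin synthase) continues and Spr (sepiapterin reductase) completes, and Qdpr (quinoid dihydropteridine reductase) regenerates it after use. Nos1, the neuronal nitric oxide synthase, converts arginine to nitric oxide and citrulline, while Arg1, the liver-type arginase, splits arginine into ornithine and urea, so both draw on the same substrate. In rodent sensory neurons BH4 synthesis, Nos1 and Arg1 are known as responders to nerve injury.

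The promoters of the first enzyme of BH4 synthesis and of the BH4-using nitric oxide synthase are shown because the values of both genes follow, and because each holds the core TGACG of the cyclic AMP response element. RefSeq sequence of build GRCr8 was available for 5 of the 6 genes, with 1 start site per gene. Each line gives the 250 bases before that start on the gene's own strand, and capitals mark TGACG or its reverse complement CGTCA.
Gch1 (chr15:22917413-22917662, minus strand): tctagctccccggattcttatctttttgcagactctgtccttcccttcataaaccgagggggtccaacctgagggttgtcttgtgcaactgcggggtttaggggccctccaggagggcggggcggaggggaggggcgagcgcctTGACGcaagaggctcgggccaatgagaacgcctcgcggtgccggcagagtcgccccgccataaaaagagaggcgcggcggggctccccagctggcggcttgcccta
Nos1 (chr12:44371838-44372087, minus strand): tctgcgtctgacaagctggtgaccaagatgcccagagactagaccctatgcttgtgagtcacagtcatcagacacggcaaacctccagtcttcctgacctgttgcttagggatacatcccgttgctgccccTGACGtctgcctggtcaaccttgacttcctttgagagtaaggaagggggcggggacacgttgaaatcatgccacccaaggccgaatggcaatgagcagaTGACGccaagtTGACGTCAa

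The Gch1 window holds TGACG once, 106 bases before the start. The Nos1 window holds 4 matches on either strand, of which the 2 nearest the start overlap in the full palindrome TGACGTCA. These letters were not in the windows of Pts, Spr and Qdpr. Of 33469 rat promoters of the same length 18.2% hold TGACG on either strand and 1.6% hold TGACGTCA. The Nos1 window lies inside the annotated span of the gene, so it belongs to one of several possible starts, and a match of letters is not a binding site.

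Values are MAS5 signal intensities on a linear scale with every array at the same trimmed mean, and log2 values are log2(signal + 12.8) on chip A and log2(signal + 20.2) on chip C. Adding this pseudocount understates changes of dim probe sets. Tests used limma on 6 pools with condition and day as terms, with n = 2 pools per condition (the 50-day and the 28-day pool), and Benjamini-Hochberg adjustment over 15721 probe sets. Because each condition had 1 pool per day and the 2 arrays of a pool share RNA, nothing could be tested at a single day. Of the 13 probe sets, 7 lay above the 40th percentile of mean signal and were tested. The other 6, among them all 3 of Nos1 and 3 of the 4 of Gch1, were too dim. Just inside the limit were Arg1 at percentile 42.9 and the chip C probe set of Spr at percentile 42.1, and just outside it Gch1 M58364_at at percentile 35.15 and Nos1 AF008912_at at percentile 34.2.

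With limma 0 of the 7 tested probe sets passed an adjusted p of 0.05 in L5 against sham, in L4 against sham, in L5 against L4 or between the days. At an unadjusted p under 0.05 Arg1 passed against sham in both ganglia and Gch1 passed between the days. Of all tested probe sets 0.763% were called for L5 against sham, 0.229% higher and 0.534% lower. The share was 0% for L4 against sham, 1.27% for L5 against L4 (0.261% higher and 1.01% lower) and 0.286% between the days (0.102% higher and 0.184% lower). At an unadjusted p under 0.05 the shares were 16.9%, 2.72%, 19.4% and 18.7%. The smallest absolute difference among the called probe sets of L5 against sham was 0.90 on the log2 scale, so smaller changes were not called in this design. The split of calls in L5 against sham was 44 higher and 369 lower with median centring. It was 45 and 2145 with arrays scaled to their hybridisation controls, which moved the median of all probe sets to -0.34, against 0.04 in the main scaling.

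**Figure D1:**
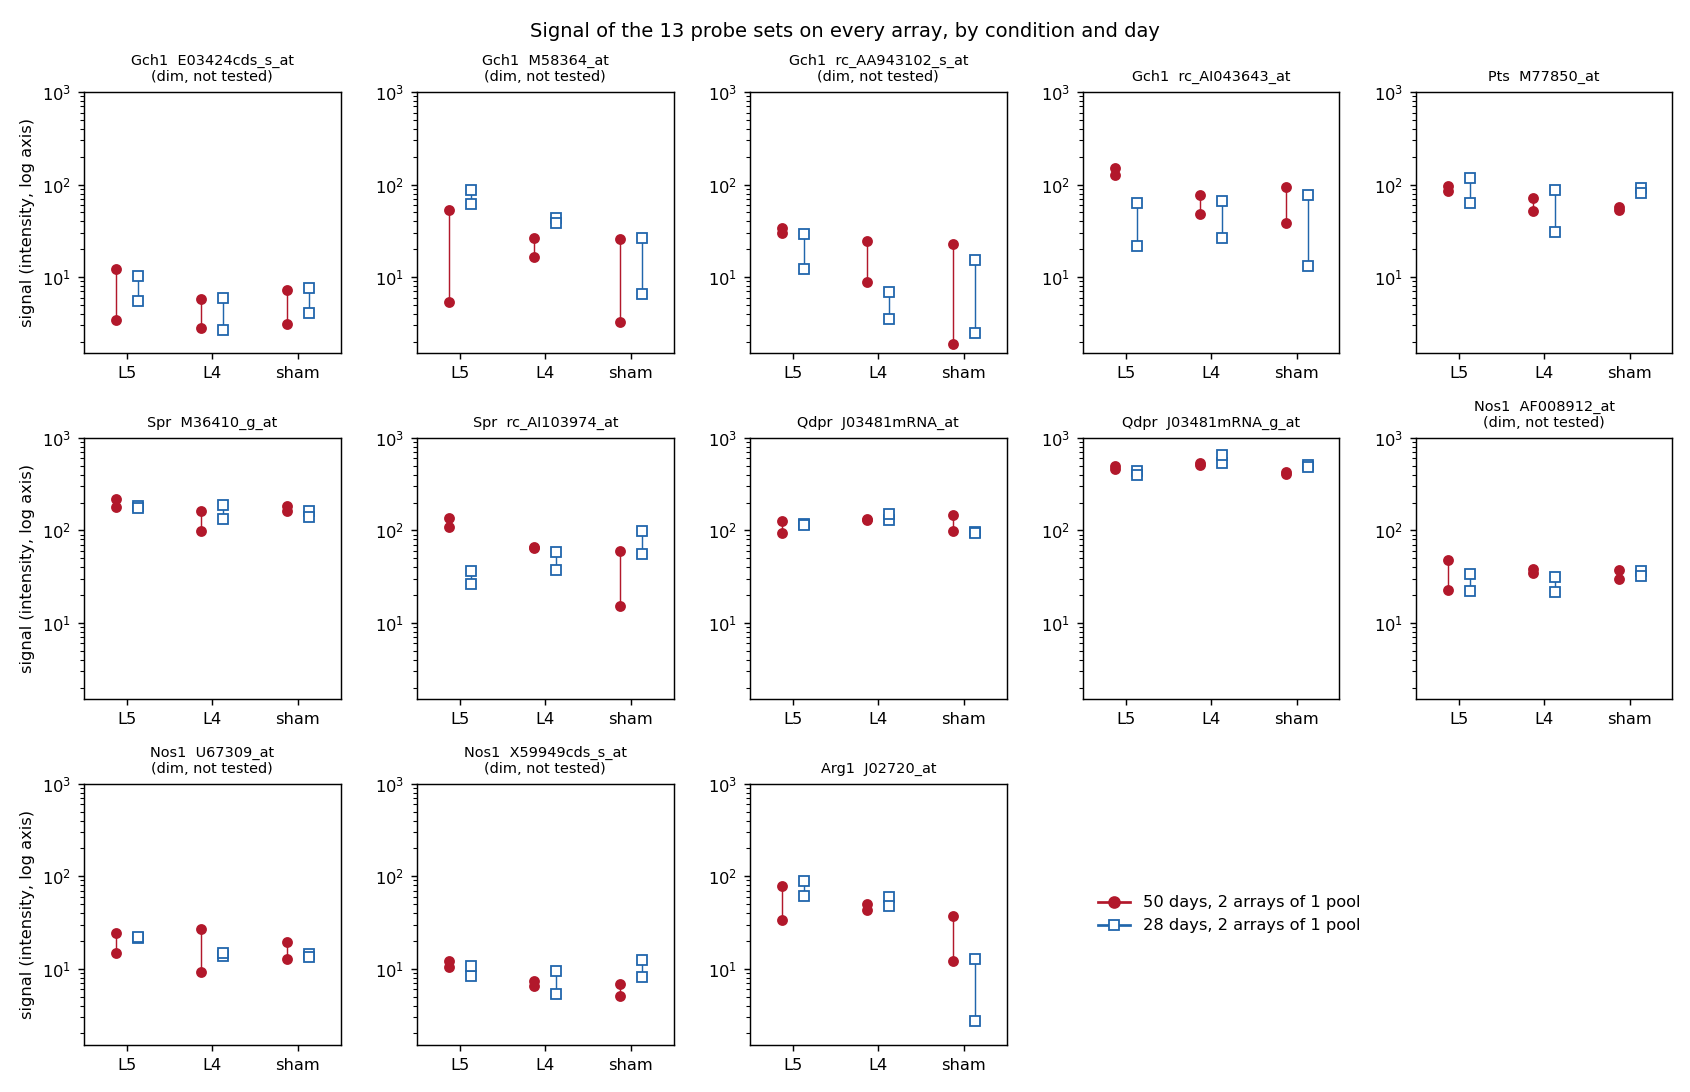
Signal (intensity, log axis) of each of the 13 probe sets on every array, by condition (L5, L4, sham); filled red circles are the 2 arrays of the 50-day pool and open blue squares those of the 28-day pool, and a line joins the arrays of a pool. Arg1 lies between 33.5 and 89.5 in L5 and between 43.3 and 59.5 in L4, against 2.7 to 37.2 in sham, while the 4 L5 arrays of each Qdpr probe set lie below its 4 L4 arrays and overlap the sham arrays.

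Arg1, the arginase that takes arginine away from nitric oxide synthesis, was the member that stood furthest from sham, in both ganglia. Its signal was 78.1 and 33.5 on the 2 arrays of the 50-day L5 pool and 89.5 and 61.5 on those of the 28-day L5 pool. In L4 it was 49.9 and 43.3 at 50 days and 59.5 and 47.5 at 28 days, and in sham 12.1 and 37.2 at 50 days and 2.7 and 12.7 at 28 days. All 4 L4 arrays thus lay above all 4 sham arrays, and in L5 3 of 4 did, since the lowest L5 array (33.5) lay below the highest sham array (37.2). Both L5 pools and both L4 pools lay above both sham pools.

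The mean log2 level of Arg1 was 6.23 ± 0.30 in L5 pools and 4.73 ± 0.59 in sham pools (SD, n = 2 each). The difference of 1.51 ± 0.45 (SE, 95% interval 0.53 to 2.49) missed the threshold (limma adjusted p = 0.134). In L4 the level was 5.97 ± 0.11, against the same 4.73 ± 0.59 in sham (SD, n = 2 each), a difference of 1.24 ± 0.45 (SE, limma adjusted p = 0.9995). Only 24 of 15721 probe sets had a larger positive difference in L5 against sham and 6 had one in L4 against sham. These ranks take no account of precision, and the SE of Arg1 (0.45) was above the median SE of 0.23 over all tested probe sets. L5 and L4 share the sham pools, so the Arg1 differences from sham are not separate observations of the same response. The difference between L5 and L4 was 0.27 ± 0.45 (limma adjusted p = 0.780), with a 95% interval of -0.71 to 1.24 that leaves room for a difference either way.

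The size of these values depended on single pools and arrays and on the pseudocount. Arg1 stood above sham by 0.88 at 50 days and by 2.13 at 28 days in L5, and by 0.75 at 50 days and 1.73 at 28 days in L4. Without the sham pool of 28 days the difference was 0.95 in L5 (limma adjusted p = 0.602) and 0.68 in L4. Without the sham pool of 50 days it was 2.07 in L5 (limma adjusted p = 0.122) and 1.80 in L4. Without the L5 pool of 50 days the L5 difference was 1.89 and passed (limma adjusted p = 0.039). It was 2.30 from the first arrays alone and 0.72 from the second alone. The sham arrays at 12.1, 2.7 and 12.7 lay below the pseudocount of 12.8, so the size of the Arg1 difference is set in part by it. With the pseudocount at the 5th percentile the Arg1 difference was 1.99 in L5 and 1.70 in L4, and with the 40th percentile 0.94 in L5 and 0.73 in L4.

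Macrophages and neutrophils can carry arginase, and their markers were read in the same pools. Macrophage markers (14 of 17 tested) summed to a signal of 2799 and 7208 in L5 at 50 and 28 days and 2474 and 2868 in L4, against 2608 and 2822 in sham. Their median difference from sham was 0.61 in L5, with 14 of 14 above 0 and 0 called. In L4 it was -0.15, with 4 of 14 above 0. Only 2 of 7 neutrophil markers were tested, with summed signals of 134.2 and 267.9 in L5 and 126.5 and 278.4 in L4, against 81.3 and 224.9 in sham. One of them, the granulocyte protein S100a9, was called lower at 50 than at 28 days (-2.03 ± 0.26, limma adjusted p = 0.0092). S100a9 differed from sham by 0.16 ± 0.32 in L5 and -0.33 ± 0.32 in L4. The other, S100a8, differed from sham by 0.64 ± 0.27 in L5 (limma adjusted p = 0.277) and 0.91 ± 0.27 in L4 (limma adjusted p = 0.9995). Its log2 levels at 50 and 28 days were 6.67 and 6.37 in L5 and 6.92 and 6.66 in L4, against 5.75 and 6.02 in sham. Between the days S100a8 differed by 0.10 ± 0.22. Skeletal muscle markers (11 of 14 tested) summed to 2584 and 4160 in L5 and 2245 and 2061 in L4, against 2267 and 1283 in sham. Their median difference from sham was 1.00 in L5, with 11 of 11 above 0 and 1 called higher (Tpm2, a muscle tropomyosin, 1.16 ± 0.21, limma adjusted p = 0.047), and 0.40 in L4, with 10 of 11 above 0 and 0 called. The part of these cells in the Arg1 level was not tested, and in pooled tissue RNA more cells of a type and more RNA per cell cannot be told apart.

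Gch1, which sets the rate of BH4 synthesis, had 4 probe sets, of which only 1 was bright enough to be tested. In L5 the average of all 4 lay above sham. The brightest Gch1 probe set, rc_AI043643_at, gave 151.0 and 128.4 on the L5 arrays at 50 days and 62.6 and 21.9 at 28 days. It gave 48.1 and 77.2 in L4 at 50 days and 65.9 and 26.5 at 28 days, and in sham 93.5 and 38.1 at 50 days and 13.2 and 77.1 at 28 days. The L5 pool of 50 days was thus the highest, with both arrays above every other array, whereas the L5 pool of 28 days lay among the sham arrays.

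For this probe set the mean log2 level was 6.46 ± 1.11 in L5 pools and 5.90 ± 0.43 in sham pools (SD, n = 2 each). The difference of 0.56 ± 0.38 did not pass (limma adjusted p = 0.471, 95% interval -0.26 to 1.39), nor did that of L4 against sham (0.11 ± 0.38, limma adjusted p = 0.9995) or of L5 against L4 (0.46 ± 0.38, limma adjusted p = 0.521). At 50 days L5 stood 1.05 above sham and at 28 days 0.08. The level at 50 days was higher than at 28 days by 0.86 ± 0.31 over all conditions (limma adjusted p = 0.190), made up of 1.57 in L5, 0.41 in L4 and 0.61 in sham. The 2 arrays of the 28-day sham pool differed by 1.79 on the log2 scale, more than any of these differences between conditions. Over all tested probe sets 4.53% had a larger gap between the arrays of some pool.

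The other 3 Gch1 probe sets were too dim to be tested in the main fit, and 1 of them, M58364_at, had its larger L5 difference at 28 days. It gave 5.4 and 53.3 in L5 at 50 days and 88.3 and 62.1 at 28 days, and 16.5 and 26.7 in L4 at 50 days and 43.0 and 38.7 at 28 days. In sham M58364_at gave 3.3 and 25.9 at 50 days and 6.5 and 26.4 at 28 days. Its L5 difference from sham was 0.47 at 50 days and 1.66 at 28 days, the reverse of the order seen with rc_AI043643_at. All 4 arrays of the 28-day L5 and L4 pools lay above all 4 sham arrays, but the lower 50-day L5 array (5.4) lay among them.

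With rc_AA943102_s_at the L5 arrays gave 33.6 and 30.2 at 50 days and 28.9 and 12.3 at 28 days. The L4 arrays gave 8.9 and 24.3 at 50 days and 3.5 and 6.9 at 28 days, and the sham arrays 1.9 and 22.9 at 50 days and 15.4 and 2.5 at 28 days. Here L5 stood above sham by 0.96 at 50 days and 0.64 at 28 days, and 3 of 4 L5 arrays lay above every sham array. E03424cds_s_at stayed between 2.7 and 12.1 on all arrays, and its L5 difference of 0.16 is that of a probe set near the bottom of the scale.

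In a fit without the filter, which tested all 26202 probe sets, M58364_at differed by 1.07 ± 0.41 (limma adjusted p = 0.309) and rc_AA943102_s_at by 0.80 ± 0.30 (limma adjusted p = 0.295) in L5 against sham. Both L5 pools lay above both sham pools in 3 of the 4 Gch1 probe sets. The same held for 7 of all 13 member probe sets (53.8%), against 21% of all probe sets and 18.3% of the tested ones. None lay lower without overlap, against 16% of all and 20.5% of the tested. The probe sets of a gene are not independent, and the 13 hold 6 genes, chosen with earlier results of these data known. The 7 included 3 Gch1 probe sets and Nos1 U67309_at, which were too dim for the main test. Shares of the tested probe sets are therefore not a like comparison for the 13. With dim probe sets included the median L5 difference from sham was 0.08 over all 26202 probe sets, against 0.04 over the tested ones. With scaling to hybridisation controls Pts and Spr M36410_g_at, also among the 7, stood at -0.09 and -0.24 in L5 against sham. In L4 against sham 4 of 13 (30.8%) were higher without overlap of pools and 1 (7.69%) was lower, against 13.3% and 16.7% of all probe sets (13.5% and 14.8% of the tested). In L5 against L4 6 of 13 (46.2%) were higher and 2 (15.4%, both of Qdpr) lower, against 24.5% and 16.5% of all (20.9% and 22% of the tested).

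**Figure D2:**
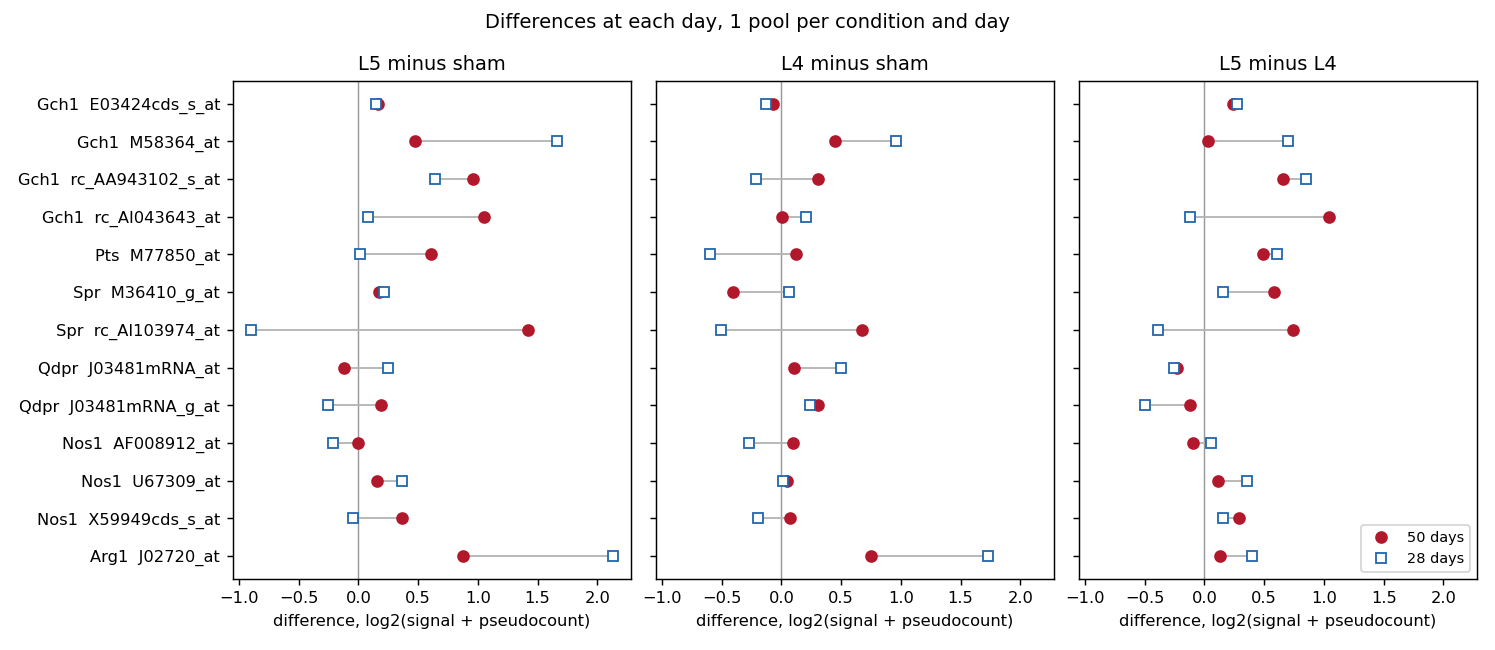
Differences between pools in log2(signal + pseudocount) for the 13 probe sets at 50 days (filled red circles) and 28 days (open blue squares), for L5 minus sham, L4 minus sham and L5 minus L4, with 1 pool per condition and day. Arg1 lies right of 0 at both days against sham in both ganglia, and Gch1 rc_AI043643_at and M58364_at show their larger L5 difference at opposite days (1.05 at 50 days and 1.66 at 28 days).

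Pts, which makes the second step of BH4 synthesis, gave 97.0 and 85.3 in L5 at 50 days and 63.1 and 118.0 at 28 days. In L4 it gave 51.6 and 72.4 at 50 days and 30.5 and 86.4 at 28 days, and in sham 57.9 and 52.5 at 50 days and 92.1 and 80.5 at 28 days. The 50-day L5 arrays lay above the 50-day sham arrays, but at 28 days they overlapped. The L5 difference was 0.31 ± 0.32 (limma adjusted p = 0.643, 95% interval -0.39 to 1.01), made up of 0.61 at 50 days and 0.01 at 28 days. In L4 it was -0.23 ± 0.32 (limma adjusted p = 0.9995). L5 against L4, at 0.55 ± 0.32, was the widest of the 3 comparisons for Pts, stood near the same value at both days (0.49 and 0.60) and did not pass (limma adjusted p = 0.367).

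Spr, the last enzyme of the chain, was read by 2 probe sets that behaved differently. M36410_g_at on chip A gave 217.7 and 176.9 in L5 at 50 days and 182.1 and 175.2 at 28 days. It gave 160.7 and 99.5 in L4 at 50 days and 132.9 and 190.5 at 28 days, and 160.1 and 185.7 in sham at 50 days and 163.9 and 140.5 at 28 days. The conditions overlapped on the array level, and the L5 difference was 0.20 ± 0.23 (limma adjusted p = 0.694, 95% interval -0.31 to 0.71).

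The chip C probe set of Spr, rc_AI103974_at, turned with the day. It gave 136.1 and 109.3 in L5 at 50 days and 36.2 and 26.1 at 28 days, and 65.9 and 63.9 in L4 at 50 days and 57.7 and 37.4 at 28 days. In sham it gave 15.2 and 60.1 at 50 days and 99.4 and 55.8 at 28 days. Both L5 arrays were above both sham arrays at 50 days (by 1.42 on average) and below both at 28 days (by -0.90), so the fitted difference of 0.26 ± 0.47 averages opposite values (limma adjusted p = 0.811). The chip A probe set did not show this pattern, with 0.17 at 50 days and 0.22 at 28 days. A turn of this kind in every pair of arrays occurred in 6.14% of all probe sets for L5 against sham, 7.73% for L4 against sham and 6.89% for L5 against L4.

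Qdpr, which recycles BH4, stood lower in L5 than in L4 without passing, and its brighter probe set had the narrowest interval of the 7. J03481mRNA_g_at gave 459.5 and 495.9 in L5 at 50 days and 440.1 and 393.6 at 28 days. It gave 530.3 and 511.6 in L4 at 50 days and 539.6 and 650.9 at 28 days, and 433.0 and 403.4 in sham at 50 days and 512.5 and 486.4 at 28 days. All 4 L5 arrays lay below all 4 L4 arrays, and the sham arrays overlapped both. These arrays come from only 2 pools per condition. Both L5 pools lay below both L4 pools in 16.5% of all probe sets and 22% of the tested ones. L5 differed from sham by -0.03 ± 0.19 (limma adjusted p = 0.943, 95% interval -0.45 to 0.38). This value averages opposite ones, 0.19 at 50 days and -0.26 at 28 days. Both L5 arrays lay above both sham arrays at 50 days and below both at 28 days.

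L4 stood above sham by 0.28 ± 0.19 (limma adjusted p = 0.9995) and L5 below L4 by -0.31 ± 0.19 (limma adjusted p = 0.392), and neither passed. The second Qdpr probe set, J03481mRNA_at, lay between 92.8 and 150.4 on all arrays and gave values close to these, with 0.07 ± 0.25 for L5 against sham, 0.31 ± 0.25 for L4 against sham and -0.24 ± 0.25 for L5 against L4. Its 4 L5 arrays also lay below its 4 L4 arrays. Both probe sets come from the same sequence record, so they are not separate evidence. With arrays scaled to hybridisation controls J03481mRNA_g_at was called lower in L5 against L4 (-0.85, limma adjusted p = 0.024), beside a median of -0.49 over all probe sets in that scaling.

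**Figure D3:**
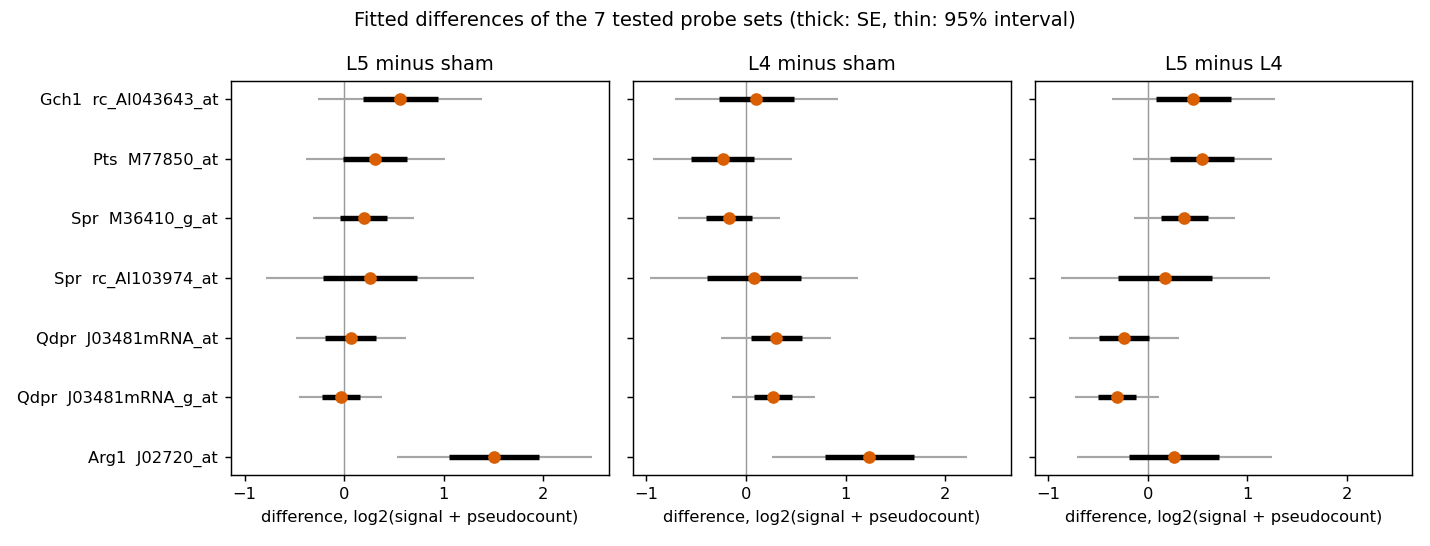
Fitted differences in log2(signal + pseudocount) for the 7 tested probe sets, for L5 minus sham, L4 minus sham and L5 minus L4; points are limma estimates with n = 2 pools per condition, thick bars the SE and thin lines the 95% interval before adjustment. Only the Arg1 intervals against sham stay clear of 0 (0.53 to 2.49 in L5 and 0.26 to 2.22 in L4), and neither passed after adjustment over all probe sets.

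Nos1, the nitric oxide synthase of neurons, stayed dim on all 3 of its probe sets. AF008912_at gave 47.8 and 22.4 in L5 at 50 days and 22.0 and 33.7 at 28 days, and 34.4 and 38.6 in L4 at 50 days and 31.1 and 21.4 at 28 days. In sham it gave 36.9 and 30.1 at 50 days and 36.1 and 31.8 at 28 days, inside the L5 range. U67309_at lay between 14.8 and 24.1 in L5 and between 9.3 and 26.6 in L4, against 12.7 to 19.3 in sham. X59949cds_s_at lay between 8.4 and 12.2 in L5 and between 5.3 and 9.5 in L4, against 5.1 to 12.3 in sham. In the fit without the filter the L5 differences were -0.11 ± 0.39, 0.26 ± 0.32 and 0.16 ± 0.24, with limma adjusted p from 0.760 to 0.926. With signals this low and no detection calls, a fall of Nos1 could hardly be seen here. No rise was called at these SEs, which does not show that there was no change.

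The genes around these enzymes were read from 6 lists, each gene by its brightest tested probe set. The lists were chosen with earlier results of these data known. In L5 against sham and in L4 against sham 0 of their tested members were called, against 0.763% and 0% of all tested probe sets. The median difference over all tested probe sets was 0.04 in L5 and -0.00 in L4.

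BH4 synthesis, recycling and regulation had 7 of 11 listed genes tested, 4 above 0 and 3 below 0 in L5 against sham, with a median of 0.06. With quantile normalization 4 of 7 were above 0, with median centring 3 of 7 and with scaling to hybridisation controls 1 of 7. The 2 furthest from 0 were Gch1 and the aldose reductase Akr1b1, an abundant enzyme that can stand in for part of the pathway, at -0.50 ± 0.17 (limma adjusted p = 0.178). Of the BH4-dependent hydroxylases only Th, the tyrosine hydroxylase of catecholamine synthesis, was tested, 1 of 5 listed genes. It stood at 0.19 ± 0.33 in L5 (limma adjusted p = 0.796).

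Nitric oxide synthases and their regulators had 7 of 12 genes tested, with 7 above 0 in L5 against sham and a median of 0.19. Furthest from 0 were the scaffold Dlg4 (PSD-95), which binds Nos1, at 0.69 ± 0.24 (limma adjusted p = 0.183), and Ddah2, which breaks down the natural inhibitor of nitric oxide synthases, at 0.52 ± 0.17 (limma adjusted p = 0.170). Dlg4 had log2 levels of 7.79 and 7.41 in L5 at 50 and 28 days and 7.47 and 7.16 in L4, against 6.88 and 6.95 in sham, without overlap of either ganglion with sham. Pools lay higher than sham without overlap in 18.3% of all tested probe sets in L5 and 13.5% in L4. The inducible Nos2 had log2 levels of 7.09 and 5.46 in L5 at 50 and 28 days, against 6.23 and 6.10 in sham, so its fitted difference of 0.11 ± 0.44 averages opposite values. The endothelial Nos3 stood at 0.05 ± 0.27 in L5 (limma adjusted p = 0.935). The list did not lean one way in each scaling: 5 of 7 were above 0 with quantile normalization, 4 of 7 with median centring and 2 of 7 with scaling to hybridisation controls.

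Targets of nitric oxide and cyclic GMP, the second messenger made by the nitric oxide receptor guanylate cyclase, had 6 of 14 genes tested. All 6 lay above 0 in L5 against sham (median 0.38), against 3 of 6 in L4 (median 0.01). The cyclic nucleotide-gated channel Cnga3 stood at 0.92 ± 0.39 (limma adjusted p = 0.252) and the phosphodiesterase Pde2a at 0.58 ± 0.35 (limma adjusted p = 0.422). The receptor subunits Gucy1a1 (0.40 ± 0.37) and Gucy1b1 (0.16 ± 0.40) lay lower. With quantile normalization 5 of 6 were above 0 and with scaling to hybridisation controls 3 of 6.

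**Figure D4:**
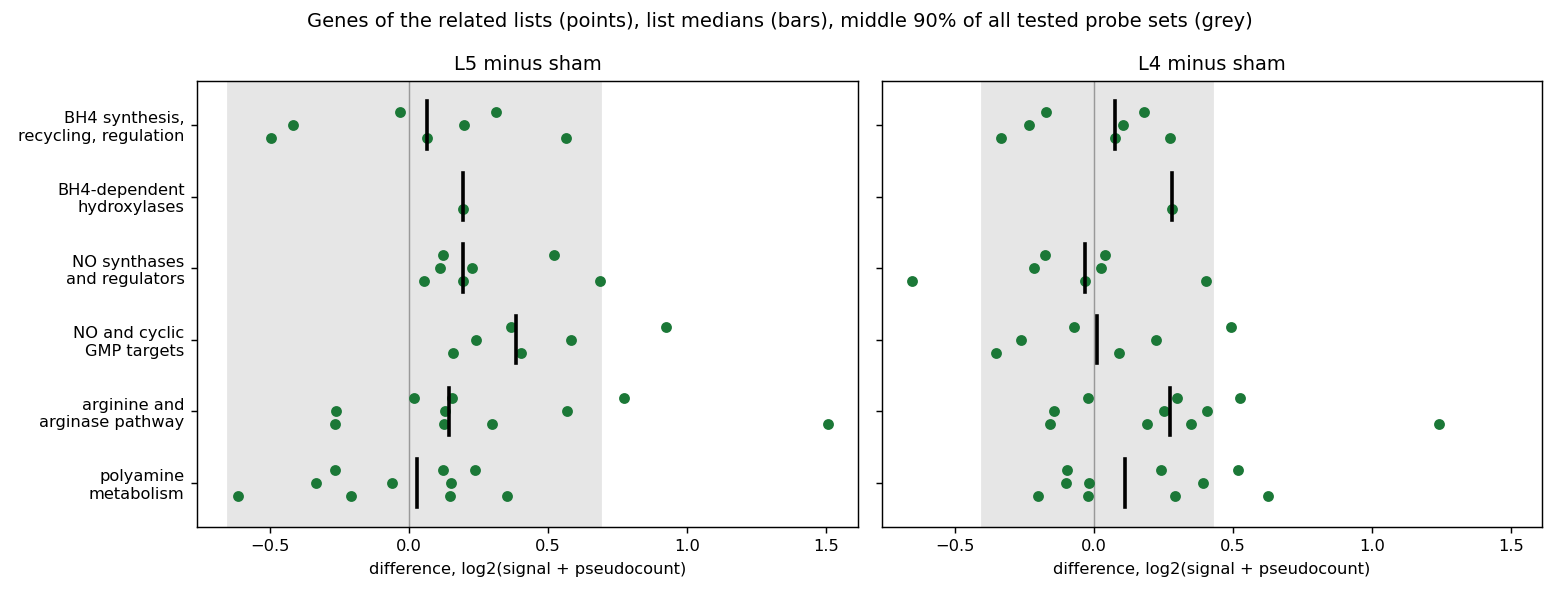
Fitted differences in log2(signal + pseudocount) of the tested genes of 6 related lists (points, 1 per gene, spread vertically for visibility) for L5 minus sham and L4 minus sham, with the list median (black bar) and the range from the 5th to the 95th percentile of all tested probe sets (grey). Arg1 is the point at 1.51 in L5 and at 1.24 in L4, outside the grey range in both.

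Arginine uptake, recycling and the arginase pathway had 10 of 14 genes tested, with 8 above 0 in L5 (median 0.14) and 7 above 0 in L4 (median 0.28). The L5 count was 6 of 10 with quantile normalization, 5 of 10 with median centring and 3 of 10 with scaling to hybridisation controls. After Arg1 the furthest was Gamt, which makes creatine from an arginine product, at 0.77 ± 0.28 in L5 (limma adjusted p = 0.2005) and 0.53 ± 0.28 in L4. The mitochondrial arginase Arg2 had log2 levels of 6.54 and 6.46 in L5 at 50 and 28 days and 6.49 and 7.02 in L4, against 6.30 and 6.39 in sham. Its differences from sham were 0.16 ± 0.30 in L5 and 0.41 ± 0.30 in L4. Odc1, which turns the ornithine made by arginase into the polyamine putrescine, stood at -0.27 ± 0.20 in L5 and -0.02 ± 0.20 in L4.

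Polyamine metabolism had 10 of 10 genes tested, 5 above and 5 below 0 in L5 against sham, with a median of 0.03. The count above 0 was 4 with quantile normalization, 3 with median centring and 0 with scaling to hybridisation controls. Srm, the spermidine synthase, stood furthest at -0.62 ± 0.46 (limma adjusted p = 0.517), with log2 levels of 6.33 and 7.95 in L5 at 50 and 28 days, against 8.14 and 7.37 in sham. Its low value came from the 50-day L5 pool alone. Paox, the polyamine oxidase, stood at 0.35 ± 0.23 (limma adjusted p = 0.471).

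The tissue labels were read against marker genes. The 12 listed neuron markers were tested and summed to a signal of 44962 and 39023 in L5 at 50 and 28 days and 47699 and 44401 in L4, against 52723 and 43892 in sham. In L5 against sham 11 of 12 lay below 0, with a median of -0.26, and 1 was called lower, the nociceptor sodium channel Scn10a (-1.34 ± 0.22, limma adjusted p = 0.024). Scn10a was also called lower in L5 against L4 (-1.10 ± 0.22, limma adjusted p = 0.039). Of 10 axon injury genes 4 were called higher in L5 against sham (Vip, Npy, Atf3 and Gal, with limma adjusted p from 0.0041 to 0.030) and 0 in L4. The injury-induced transcription factor Atf3 had log2 levels of 8.34 and 8.94 in L5 and 7.26 and 7.85 in L4, against 6.85 and 7.38 in sham. The median of the list was 0.82 in L5 and 0.34 in L4. Arg1 stood 1.51 above sham in L5 and 1.24 above the same sham pools in L4. Of the 10 axon injury genes 3 were called higher in L5 against L4, and Arg1 was not called there. The Arg1 interval in L5 against L4 (-0.71 to 1.24, with an SE of 0.45) holds the value of Atf3 (1.08 ± 0.21). Vip, the one furthest from sham, stood at 2.72 in L5 and 0.85 in L4 and was called in L5 against L4 (1.88 ± 0.24, limma adjusted p = 0.018). Gal was not called in L5 against L4 (0.83 ± 0.26, limma adjusted p = 0.126). Nor was Cacna2d1, which stood at 0.90 in L5 and 0.54 in L4 (L5 against L4 0.36 ± 0.22, limma adjusted p = 0.375). The differences of Arg1 and of these genes were not tested against each other.

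Over the 6 pools, the genes that followed a member most closely were found by Pearson correlation of log2 levels among single-gene probe sets that spanned at least 1 on the log2 scale. With 6 points and 3404 candidates such values are high by selection, and the points share arrays and scaling. Arg1 was followed by Baiap2 (r = 0.978), Fcgrt (r = 0.974) and Nhlrc3 (r = 0.970). Gch1 (rc_AI043643_at) was followed by Atf6b (r = 0.989), Mgmt (r = 0.989) and Rnase1 (r = 0.986). Pts was followed by Srp54a (r = 0.980), Ccnd1 (r = 0.979) and Miox (r = 0.977), and Spr by Msl1 (r = 0.996), Sdhaf3 (r = 0.991) and Tnfsf13 (r = 0.990). Qdpr was followed by Dnaja3 (r = 0.992), Cfl2 (r = 0.985) and Ltv1 (r = 0.943). Nos1, whose pools spanned 0.35 on the log2 scale, was followed by Ctrc (r = 0.978), Mlnr (r = 0.971) and Tpm3 (r = 0.930).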

How the data were processed

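The deposited tables hold signal intensity on a linear scale, made by the authors with MAS5 per the submitters' processing notes (version not given in the sources used here). After trimming 2% from either end, the mean signal was 150.07 to 150.21 on the 36 arrays. Correlation between arrays of 1 pool was 0.880 to 0.958. No detection calls were used, and the number of arrays limits the precision.

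Arrays were scaled to this trimmed mean within a chip type and transformed to log2(signal + pseudocount), the 20th percentile of a chip type's signals. Control probe sets and those under the 40th percentile of mean signal were left out. Arrays of a pool were averaged, and limma 3.58.1 in R 4.3.3 (lmFit, eBayes with intensity trend) was fitted to condition and day with 2 residual degrees of freedom. Benjamini-Hochberg adjustment covered 15721 probe sets. The code was tested on simulated data. Probe sets were named from GEO's platform annotation, in which 0 symbols changed on matching to RefSeq gene IDs.

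The rule for named genes took all member probe sets, members of the 6 related lists called in any of the 3 condition comparisons, the 2 genes of each list furthest from 0 in L5 against sham, and the 3 genes most like each member. Other genes named beside these, among them Nos2, Nos3, Arg2, Odc1, Gucy1a1, Gucy1b1 and the named marker genes, were chosen from the lists after their values were seen. The members and lists were chosen with earlier results of these data known. Array numbers of different pools shared no pattern (correlation of array 1 minus array 2 between pools -0.10 to 0.11, median 0.02), so they do not pair the arrays. One chip B array of the 28-day sham pool carries both days in its labels and was kept by its title (no member lies on chip B). P-values rest on how far the differences between conditions disagreed between the 2 days, with 1 pool per condition and day. The fit drew this spread towards that of other probe sets of like signal. Total degrees of freedom were therefore 9.0 to 12.0, against 2 residual.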

Additional observations from a re-analysis of the deposited data

Results flagged for a closer look

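A probe set was picked out where every L5 array lay on one side of every array of the other condition at 50 days and on the opposite side at 28 days. The difference between the days was not tested, since each condition had 1 pool per day. Spr on chip C (rc_AI103974_at) stood at 1.42 at 50 days and -0.90 at 28 days in L5 against sham, and at 0.74 at 50 days and -0.39 at 28 days in L5 against L4. Qdpr (J03481mRNA_g_at) stood at 0.19 at 50 days and -0.26 at 28 days in L5 against sham. Over all probe sets 6.14% turned this way in L5 against sham and 6.89% in L5 against L4, beside 2 and 1 of the 13 member probe sets.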

How the results depend on the processing

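With 2 pools per condition and 2 residual degrees of freedom, counts of calls moved widely, and no detection calls mark which signals lie above background. The 120, 199 and 45 probe sets called in L5 against sham, L5 against L4 and 50 against 28 days became 43, 59 and 18 with quantile normalization, 413, 680 and 90 with median centring, 31, 19 and 23 without the filter, 3, 0 and 0 without the intensity trend, 0, 0 and 2 with only the first arrays and 2, 0 and 5 with only the second. Scaling to hybridisation controls gave 2190, 4999 and 371, and 4 in L4 against sham, against 0. Without a day term 0 were called in L5 against sham and L5 against L4. With 12 arrays and the pool as a random block the counts were 1114, 1388 and 1031, and 1 in L4 against sham. Adding array number as a replicate block gave 977, 1186 and 796, with Arg1 in L5 against sham at 1.51 (limma adjusted p = 0.055). Array numbers do not pair the arrays. Leaving out 1 pool at a time gave 12 to 621 in L5 against sham, 0 to 11 in L4 against sham, 98 to 784 in L5 against L4 and 69 to 422 between the days. The causes were not tested.

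Of the member values under these alternatives 484 kept their direction and side of the threshold, 50 changed direction and 3 passed the threshold: Arg1 in L5 against sham with 12 arrays (1.51, limma adjusted p = 0.041) and without the L5 pool of 50 days (1.89), and Qdpr J03481mRNA_g_at in L5 against L4 with hybridisation controls (-0.85). Arg1 against sham stayed above 0 in each of the 19 alternatives in which it was tested, at 0.72 to 2.30 in L5 and 0.68 to 1.80 in L4. A stricter filter at the 60th percentile of mean signal left out Arg1, Gch1 rc_AI043643_at, Pts and Spr rc_AI103974_at.

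In L5 against sham Qdpr J03481mRNA_at turned to -0.0811 with quantile normalization, -0.13 with median centring, -0.35 with hybridisation controls and -0.17 with the first arrays, and Qdpr J03481mRNA_g_at to 0.0702 with quantile normalization. Pts turned to -0.0882 and Spr M36410_g_at to -0.24 with hybridisation controls, and Spr rc_AI103974_at to -0.0126 with the second arrays. In L4 against sham the second arrays gave -0.19 for Gch1, 0.24 for Pts and -0.17 for Spr rc_AI103974_at. In L5 against L4 hybridisation controls gave -0.15 for Spr M36410_g_at, -0.17 for Spr rc_AI103974_at and -0.19 for Arg1. Between the days Qdpr J03481mRNA_at was -0.0519 with quantile normalization, -0.0816 with median centring and -0.0031 with hybridisation controls, and Arg1 -0.0229 with quantile normalization and -0.0505 with median centring. Spr M36410_g_at was 0.0019 with the larger pseudocount, and the first arrays gave 0.18 for Pts, 0.15 for Spr M36410_g_at and -0.0471 for Spr rc_AI103974_at.

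Leaving out 1 pool at a time, the differences ran from -0.0191 to 0.64 for Pts, -0.62 to 1.13 for Spr rc_AI103974_at, -0.12 to 0.26 for Qdpr J03481mRNA_at and -0.24 to 0.17 for Qdpr J03481mRNA_g_at in L5 against sham. In L4 against sham they ran from -0.23 to 0.44 for Gch1, -0.56 to 0.10 for Pts, -0.40 to 0.0537 for Spr M36410_g_at and -0.79 to 0.96 for Spr rc_AI103974_at. In L5 against L4 they ran from -0.0725 to 0.99 for Gch1, -0.69 to 1.04 for Spr rc_AI103974_at and -0.12 to 0.65 for Arg1. Between the days they ran from -0.24 to 0.12 for Pts, -0.0871 to 0.15 for Spr M36410_g_at, -0.25 to 0.91 for Spr rc_AI103974_at, -0.0757 to 0.12 for Qdpr J03481mRNA_at, -0.22 to 0.0052 for Qdpr J03481mRNA_g_at and -0.29 to 0.34 for Arg1.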
